A study of Mus musculus with 9 samples.

Results

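The 4 mouse Hox clusters were examined in peak lists of enhancer activity, accessible DNA and RARA binding from E14 embryonic stem cells. Members were the regions of 5 deposited lists whose midpoint lay in 1 of 4 windows on the mm9 genome: chromosome 6 from 52000001 to 52320000 for Hoxa, chromosome 11 from 95950001 to 96330000 for Hoxb, chromosome 15 from 102650001 to 102970000 for Hoxc and chromosome 2 from 74390001 to 74710000 for Hoxd. Each window held the cluster body and a flank of 100 kb on either side. This gave 301 of the 202373 listed regions: 264 input regions, 31 RARA peaks, 4 mESC enhancers, 1 LIF-dependent enhancer and 1 RA-induced enhancer.

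Enhancer activity came from FAIRE-STARR-seq, in which fragments of accessible DNA are cloned into a plasmid behind a promoter and an active fragment drives its own transcription. The fragments came from E14 cells treated with retinoic acid (RA) for 4 h, and the plasmid pool (1 sample) gave the input regions. Transfected cells were either kept with LIF, the cytokine that maintains pluripotency (3 samples), or given 1 µM RA without LIF for 4 h (3 samples). mESC enhancers are those called in LIF over the plasmid input. LIF-dependent enhancers were called in LIF over RA, and RA-induced enhancers in RA over LIF, so neither list separates LIF withdrawal from RA. RARA, a nuclear receptor for RA, was mapped by ChIP-seq in cells given 1 µM RA for 4 h (1 sample with 1 input sample). All groups were cells of the same line with no genetic change named in the labels. Reporter fragments were read on plasmids, outside their own chromosome. The enhancer lists came from merged replicates and the other 2 lists from 1 library each, so no spread between replicates and no depth was given. No test was made. Intervals are 95% Wilson for shares and 95% exact Poisson for numbers per Mb, and cover counting error alone, as if neighbouring regions were independent.

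Hox genes encode homeodomain transcription factors that set position along the head-to-tail axis of the embryo. Within a cluster the low-numbered genes are switched on first and furthest forward, and the high-numbered genes later and further back. RA is a classical inducer of the low-numbered genes: its receptors bind DNA with RXR partners at pairs of a short hexamer and change the activity of nearby promoters and enhancers. In embryonic stem cells the clusters are known as Polycomb-bound domains with little transcription. In the gene order of assembly GRCm38, the low-numbered end has the lower coordinates in Hoxa, which runs from Hoxa2 to Hoxa13 among the members. It has the higher coordinates in Hoxb (Hoxb13 to Hoxb1), Hoxc (Hoxc13 to Hoxc4) and Hoxd (Hoxd13 to Hoxd1). That assembly served for order and promoter sequence alone, so no peak was assigned to a gene, and positions below are given from the body end nearest the low-numbered genes.

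Promoter sequences from RefSeq (GRCm38.p6, 250 bases before to 50 bases after a gene's start) matched 22 of the 38 member genes, with 24 promoters. These were 9 of 10 genes in Hoxa and 9 of 9 in Hoxd, but 3 of 10 in Hoxb and 1 of 9 in Hoxc, so the motif shares describe mainly Hoxa and Hoxd. The RA receptor hexamer was searched as AGGTCA or GGGTCA or AGTTCA or GGTTCA on both strands. A direct repeat of it spaced by 1, 2 or 5 bases was found in 0 of the 24 Hox promoters and in 0.588% of all 32851 promoters of the table. These letters are thus rare in windows of this length. A single hexamer was common and was held by 11 of the 24 Hox promoters (45.8%) and 43.7% of all promoters. AGGTCA itself was held by 7 of 24 (29.2%) and by 16.3% of all. The difference rests on these 7 promoters, and no interval was worked out for it. Hox promoters had a median GC content of 57.7%, against 52.7% over the table. Group 4 is shown because its genes are paralogues in different clusters and all 3 of their promoters at hand held AGGTCA. It was picked after the matches were seen. Capitals mark the hexamer, which lies on the strand opposite to the gene and so reads in reverse complement. All 3 genes are on the plus strand, and the GRCm38.p6 positions chr11:96318169-96318208 (Hoxb4), chr15:103034232-103034271 (Hoxc4) and chr2:74721816-74721855 (Hoxd4) cannot be set against mm9 positions. The hexamer began 81 bases before the start in Hoxb4, 146 in Hoxc4 and 145 in Hoxd4.
Hoxb4: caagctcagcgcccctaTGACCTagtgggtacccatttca
Hoxc4: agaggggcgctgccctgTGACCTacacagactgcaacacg
Hoxd4: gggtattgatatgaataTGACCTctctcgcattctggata

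All 4 cluster bodies were densely populated with accessible DNA in the plasmid library. The bodies held 267 input regions per Mb in Hoxa, 306 in Hoxb, 267 in Hoxc and 283 in Hoxd, against 72.5 per Mb over the span of the whole list. The flanks lay between, with 150, 170, 115 and 120 per Mb in the same order, so every body was denser than its own flanks and every pair of flanks denser than the list. Input regions covered 9.44% of the body sequence, 5.23% of the flanks and 2.73% of the list's span. Among 19579 tiles of 120 kb with at least 1 input region, the median coverage was 2.13% and the 99th percentile 10.1%. Coverage by body, over 180 kb in Hoxb and 120 kb in the others, was 8.77% in Hoxa, 10.3% in Hoxb, 9.65% in Hoxc and 8.62% in Hoxd. The 3 bodies of 120 kb held 32 (Hoxa), 32 (Hoxc) and 34 (Hoxd) input regions, and the 99th percentile of the tiles was 32.0.

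**Figure D1:**
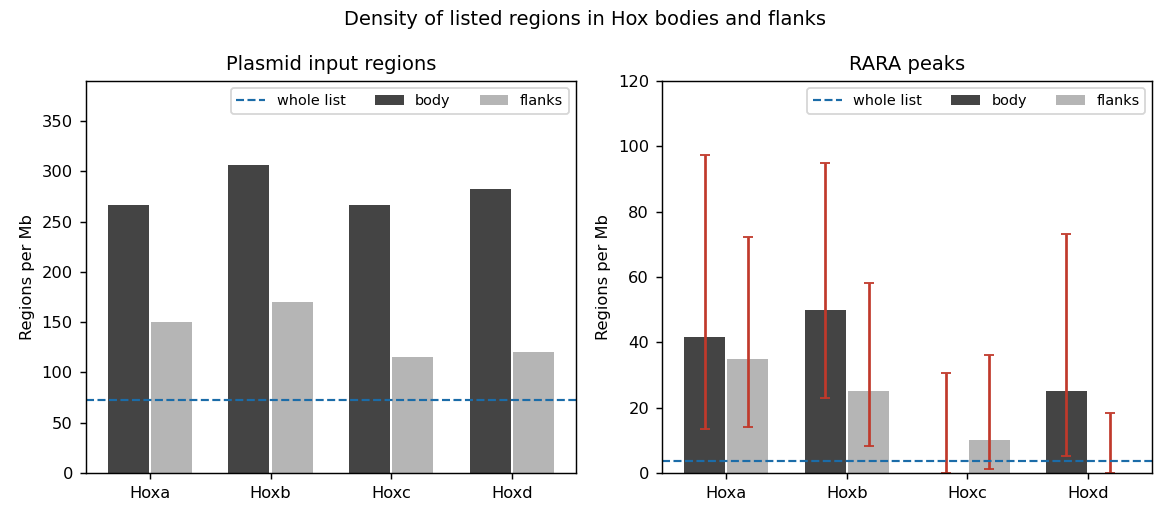
Listed regions per Mb in the body (dark bars) and flanks (light bars) of each cluster, for plasmid input regions on the left and RARA peaks on the right; the dashed line is the value over the whole list (72.5 and 3.78 per Mb) and red bars on the RARA panel are 95% exact Poisson intervals. Input density is above the line in each body and each pair of flanks. RARA density is above the line in the Hoxa, Hoxb and Hoxd bodies (5, 9 and 3 peaks). The Hoxc body and the Hoxd flanks have 0 peaks.

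Most of these body regions were weakly enriched in the library. Fold enrichment, the authors' value at the summit of a region, had a median of 4.40 in the bodies, 5.41 in the flanks and 5.48 in the whole input list. In the bodies 106 of 153 regions (69.3%) lay below the list's median, and in the flanks 57 of 111 (51.4%). The body median was lower than that of the flanks in Hoxb (4.23 in the body, 5.51 in the flanks) and Hoxd (4.35 and 5.78). In Hoxa (4.84 and 5.16) and Hoxc (4.31 and 4.56) the 2 medians were closer. The top decile of the list by fold, 10.0% of all input regions, held 3.27% of body regions and 12.6% of flank regions. Widths were ordinary, with medians of 286 bp in the bodies and 357 bp in the flanks against 327 bp in the list. None of the 264 regions was wider than 1 kb, a width passed by 1.06% of the list.

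Along the bodies the density changed little, with 294 input regions per Mb in the third nearest the low-numbered genes, 272 in the middle and 283 in the third nearest the high-numbered genes. Single clusters varied more, on few regions each. Hoxb had 367 per Mb (22 regions) at the Hoxb1 end and 233 (14 regions) at the Hoxb13 end. Hoxa had 225 (9 regions) at the Hoxa2 end and 325 (13 regions) at the Hoxa13 end. No interval was worked out for these densities, so no trend along a cluster is read from them.

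The best represented region of a body stood next to the edge at the high-numbered end in both Hoxb and Hoxc. In Hoxc it had an input fold of 22.0 (chromosome 15 from 102751003 to 102751454), rank 879 of the 186959, and in Hoxb 19.4 (chromosome 11 from 96051435 to 96052045), rank 1954. Both carried an mESC enhancer. In Hoxa the top of the body was 14.4 (chromosome 6 from 52147330 to 52147865), overlapped by an RARA peak whose strongest summit lay outside it. In Hoxd it was 11.5 (chromosome 2 from 74553903 to 74554279), with neither an enhancer nor an RARA peak. In the flanks the top regions had folds of 14.2 in Hoxa, 14.7 in Hoxb, 16.3 in Hoxc and 18.1 in Hoxd. The widest body regions were 631 bp in Hoxa, 797 bp in Hoxb, 669 bp in Hoxc and 769 bp in Hoxd, with folds of 9.67, 5.10, 5.15 and 6.50.

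**Figure D2:**
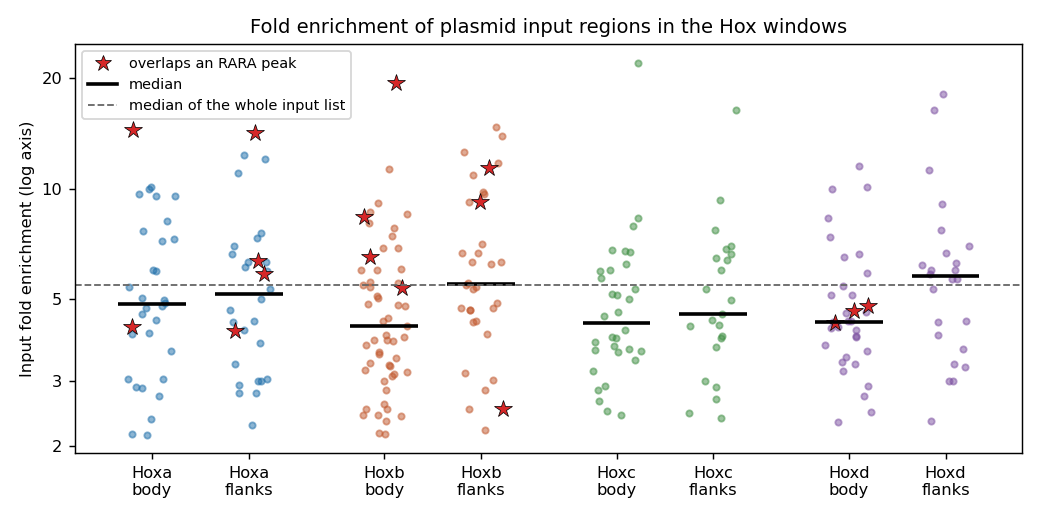
Fold enrichment (log axis) of each of the 264 input regions by cluster and by body or flanks; black lines are medians, the dashed line is the median of the whole list (5.48) and stars mark the 16 regions that overlap an RARA peak. Body medians lie below the dashed line in all 4 clusters, and no Hoxc column holds a star.

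RARA peaks after RA were most numerous in Hoxa and Hoxb. The Hoxa window held 12 RARA peaks (37.5 per Mb, 19.4 to 65.5) and the Hoxb window 14 (36.8 per Mb, 20.1 to 61.8), against 3.78 per Mb over the span of the input list. The Hoxd window held 3 (9.38 per Mb, 1.93 to 27.4) and the Hoxc window 2 (6.25 per Mb, 0.757 to 22.6), and both intervals include the value of the list. The bodies ordered the clusters differently. The Hoxa body held 5 peaks (41.7 per Mb, 13.5 to 97.2), the Hoxb body 9 in 180 kb (interval 22.9 to 94.9 per Mb) and the Hoxd body 3 (25.0 per Mb, 5.16 to 73.1). These 3 intervals overlap one another and lie above the list's value. The Hoxc body held 0, which allows up to 30.7 per Mb and so includes the list's value. Its interval also overlaps those of the other bodies, but overlap of intervals does not decide whether 2 bodies differ, which was not tested. The Hoxd flanks also held 0, which allows up to 18.4 per Mb and so includes the list's value. That interval overlaps the one of the Hoxd body, and a difference between them was likewise not tested. Of the 120 kb tiles, 25.2% held at least 1 RARA peak and 1.65% held at least 5, the number in the Hoxa body.

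Most of these peaks were no stronger than is typical of the list. The authors' fold enrichment at the RARA summit had a median of 2.94 in the 31 peaks and 3.06 in the whole list, and 18 of the 31 lay below the list's median. Over 5-fold enrichment was reached by 6 of 31, against 13.6% of the list. All 6 were in Hoxa and Hoxb, 3 in each. More than 1 summit was called in 5 of the 31 peaks, 4 of them in Hoxa, and in 12.9% of the list.

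With flanks of 100 kb, the strong peaks of Hoxa stood outside the body, all on the side of the low-numbered genes. That flank held 7 RARA peaks in 100 kb (70.0 per Mb, 28.1 to 144), and the flank beyond Hoxa13 held 0 (up to 36.9 per Mb). The strongest, on chromosome 6 from 52055026 to 52056537, was centred 44.2 kb from the body and had a fold of 11.8, above 98.4% of the list. It had 3 summits with folds of 3.17, 2.58 and 11.8, and 2 smaller peaks of 2.94 and 3.33 followed after gaps of 249 and 283 bp. The next, of 8.36-fold (from 52095033 to 52095455), lay 4.76 kb from the body, and falls inside it with flanks of 80 kb. The third, of 6.12-fold (from 52028561 to 52029384), lay 71.0 kb away with 2 summits. Inside the body all 5 folds were between 2.47 and 3.90. The highest of these, on chromosome 6 from 52146794 to 52147750, had 3 summits and overlapped the best represented input region of the body. Its 3.90-fold summit lay outside that input region, and its summits of 2.47 and 2.66 lay inside.

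In Hoxb the strongest peak was at the other end. A peak of 16.7-fold on chromosome 11 from 96051232 to 96051861, the 67th of 9757 by fold, lay 1.55 kb inside the edge at the Hoxb13 end. The other folds above the list's median within the body were in the third of it nearest Hoxb1. They were 5.15 (from 96172974 to 96173740) and 4.91 (from 96171969 to 96172246), which stood 727 bp apart at 56.6 and 57.9 kb from the Hoxb1 end, and 3.40 (from 96213367 to 96213547) at 16.5 kb. Just outside that end, 6.38 kb from the body, was a peak of 5.58-fold (from 96236252 to 96236501). The remaining 5 peaks of the body ran from 2.39 to 2.94. The flank beyond Hoxb13 held 4 peaks from 2.93 to 3.09.

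The 3 Hoxd peaks were all inside the body and all had a fold that rounds to 2.94. The third of the body nearest Hoxd1 held 2 of them, at 22.2 kb from the end (chromosome 2 from 74587629 to 74587892) and 31.4 kb (from 74578442 to 74578766); the third lay at 81.7 kb (from 74528112 to 74528417). The 2 Hoxc peaks were both in the flank next to Hoxc4, with folds of 2.03 (chromosome 15 from 102871652 to 102871803), above 2.39% of the list, and 3.51 (from 102943195 to 102943431). Over all 4 clusters the flanks on the side of the low-numbered genes held 10 peaks, 4 of them over 5-fold, and the opposite flanks 4 peaks, none over 5-fold. Of the 10 peaks, 7 came from Hoxa, as did 3 of the 4 over 5-fold. This contrast depends on the edge of the bodies. With flanks of 120 kb the 16.7-fold Hoxb peak falls in the flank beyond Hoxb13. With flanks of 80 kb the 8.36-fold Hoxa peak and the 5.58-fold Hoxb peak fall in the bodies.

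**Figure D3:**
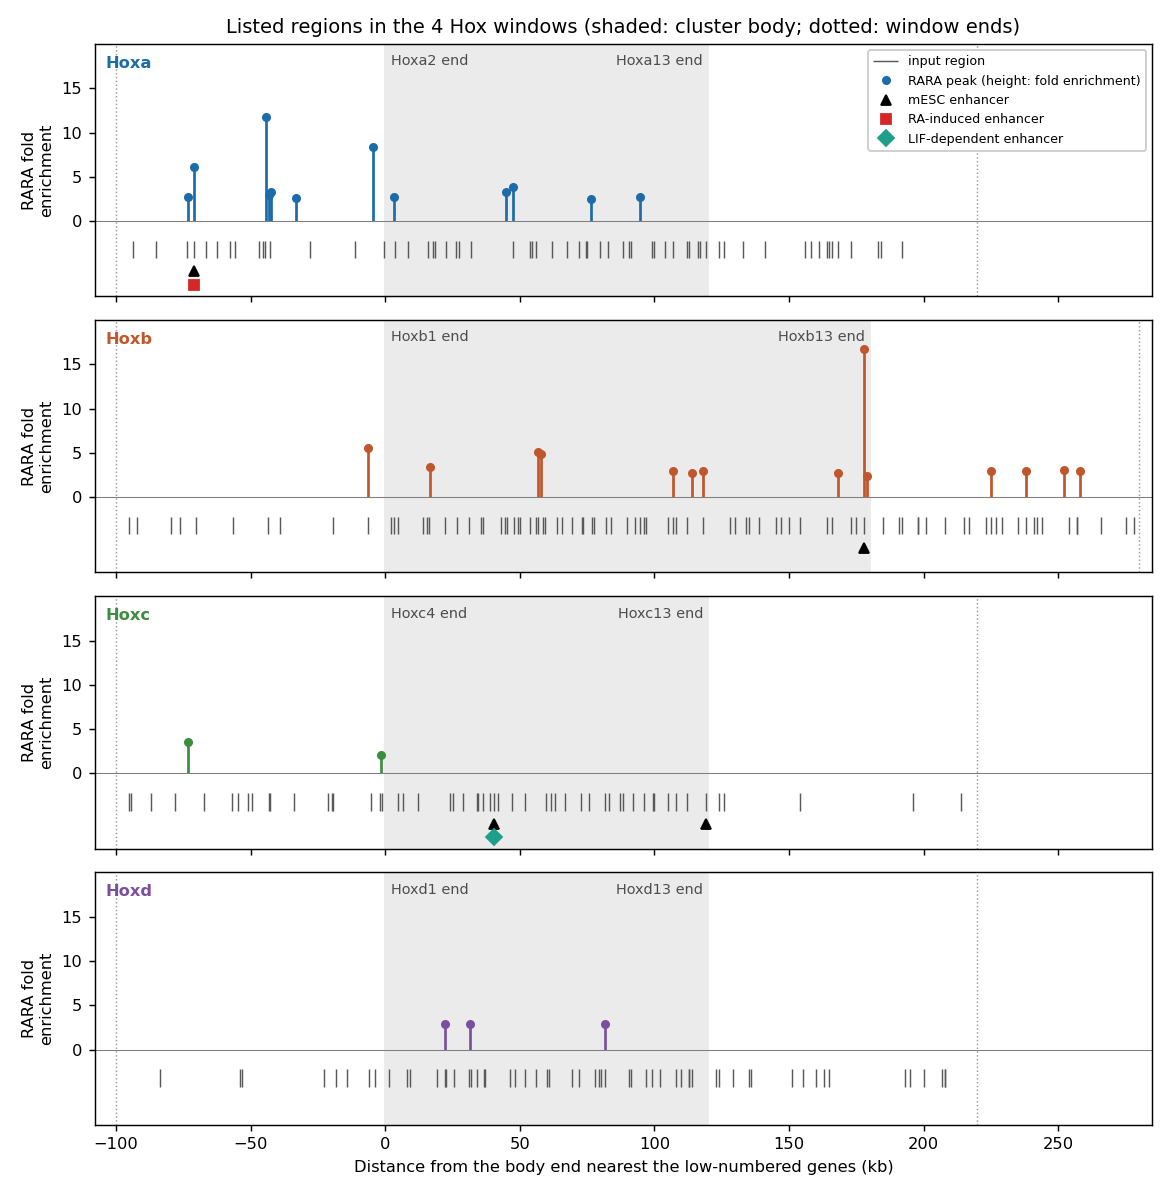
Listed regions of each window by distance (kb) from the body end nearest the low-numbered genes, with the body shaded and window ends dotted; stems are RARA peaks at the height of their fold enrichment, grey ticks are input regions, and symbols below mark enhancers. Hoxa shows 3 tall stems to the left of the body (6.12, 11.8 and 8.36), Hoxb a tall stem of 16.7 at the right edge, and Hoxc and Hoxd have no stem above 3.51.

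RARA peaks and the plasmid library overlapped in part. An input region was overlapped by 16 of the 31 Hox peaks, and by 55.6% of all RARA peaks: 6 of 12 in Hoxa, 7 of 14 in Hoxb, 3 of 3 in Hoxd and 0 of 2 in Hoxc. The input regions overlapped by the 3 Hoxd peaks were modest, with folds of 4.80, 4.32 and 4.65. Of these 3 peaks, 1 had its summit in the input region. Of the 6 peaks over 5-fold, 3 had the summit in an input region, against 61.9% of such peaks in the list. With 6 peaks these shares cannot be told apart. The 11.8-fold summit in Hoxa lay outside, although weaker summits of the same peak lay in an input region, and the 8.36-fold peak overlapped none. In Hoxb the 5.15-fold summit was outside as well, as was the 4.91-fold peak, which is below the 5-fold cut. The reporter lists hold no call for such DNA.

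Seen from the library, 9 of 153 body regions (5.88%, 3.13 to 10.8%) and 7 of 111 flank regions (6.31%, 3.09 to 12.4%) overlapped an RARA peak, against 2.94% of all 186959 input regions. The intervals of body and flanks overlapped almost wholly. Where the RARA summit itself had to lie in the region, the shares were 3.27% in bodies, 5.41% in flanks and 2.41% in the list. By window the shares were 9.68% in Hoxa (6 of 62), 7.87% in Hoxb (7 of 89), 5.17% in Hoxd (3 of 58) and 0% in Hoxc (0 of 55, up to 6.53%). RARA peaks become more frequent with input fold, from 1.42% in the lowest decile of the list to 9.44% in the highest. At the list's shares by decile of fold, 6.63 of the 264 window regions would overlap an RARA peak by at least 1 bp, and 16 did. The same was not worked out for summits, which lay in an input region for 11 of the 31 Hox peaks and 4531 of all 9757. What the difference rests on was not tested. The Hoxa, Hoxb and Hoxd windows had 6, 7 and 3 against 1.67, 2.39 and 1.41, and the Hoxc window 0 against 1.16.

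The windows held 4 mESC enhancers, 3 of them in the bodies. Among the input regions 4 of the 264 input regions (1.52%, 0.591 to 3.83%) overlapped one, against 2.47% of all input regions, a share within that interval. In the bodies it was 3 of 153 (1.96%, 0.669 to 5.61%). Per Mb of sequence the bodies had 5.56 mESC enhancers, the windows 2.99 and the list 1.81, beside 283, 197 and 72.5 input regions. The Hoxd window held 0 enhancers of any list among 58 input regions. For mESC enhancers that allows a share of up to 6.21%, which includes the list's 2.47%. Of the 4 mESC enhancers, 2 overlapped an RARA peak, against 18.5% of all mESC enhancers. Among the 31 RARA peaks 2 overlapped an enhancer, against 9.19% of the list.

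The RA-induced enhancer was in the Hoxa flank, 71.2 kb from the body on the Hoxa2 side (chromosome 6 from 52028640 to 52028919), with an RA over LIF fold of 5.07, above 44.0% of that list. It coincided with an mESC enhancer (from 52028629 to 52028957) of 8.00-fold over input and a score of 2.21, above 31.8% of scored enhancers. The score is the authors' value and its scale is not stated. Both lay in the 6.12-fold RARA peak, whose summit was 12 bp from the RA-induced summit and 20 bp from the mESC one, and in an input region of 14.2-fold. The plasmid library had 92 input regions with all of these marks, and this was the single one in the Hox windows. RA-induced enhancers numbered 0.148 per Mb over the list's span and 0.746 per Mb in the windows, a value that rests on this 1 enhancer. The bodies, 540 kb in all, held 0, too short a stretch for that count to differ from the list.

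At the Hoxb13 end the 16.7-fold RARA peak held an mESC enhancer (chromosome 11 from 96051537 to 96051905) with summits 14 bp apart. Its activity was low, 4.44-fold over input with a score of 1.53, above 5.69% of scored enhancers, and it was in neither list of changed enhancers. Hoxc had 2 mESC enhancers, both in the body and neither at an RARA peak. One, near the Hoxc13 end (chromosome 15 from 102751057 to 102751427), had 4.01-fold and a score of 1.47, above 4.58%. The other, 40.2 kb from the Hoxc4 end (from 102829638 to 102829916), had 6.37-fold and a score of 2.31, above 37.8%. It was the LIF-dependent enhancer of the windows, with a LIF over RA fold of 7.99, above 81.4% of that list though in its weaker 50% by q-value, in an input region of 3.95-fold.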

How the data were processed

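The peak lists of 9 samples, grouped by title, were used as deposited: reporter libraries merged by treatment, the plasmid input and the RARA ChIP. The build is mm9, and the tools named are MACS2, deepTools, SAMtools, Bowtie2 and UMI-tools, per the submitters' processing notes; how each was set, in which order and at which version is not stated. In each list the authors deposited a score of 10 times the −log10 q, fold enrichment (a ratio), the −log10 p and q-value, and the summit. The deposited activity score of mESC enhancers has no stated scale. Rows sharing a region were collapsed to the highest −log10 q. Overlap meant at least 1 bp, and coordinates count from 1. Bodies are the windows less 100 kb at each end, also divided by length into 3 equal parts. The span of the list runs from the first to the last input region of each chromosome. All enhancers and RARA peaks of the windows were described, and input regions by highest fold, greatest width or overlap. Members, windows and motifs were chosen with earlier results of these data known. Alternatives changed membership, flank, overlap, collapse and peak strength. The overlap code was tested on simulated regions. Scripts ran under Matplotlib 3.10.9, pandas 2.3.3, Python 3.11.15, SciPy 1.17.1 and NumPy 2.4.6. The files hold no expression values, so cell identity was not checked.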

Additional observations from a re-analysis of the deposited data

How the results depend on the processing

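Of 53 recalculations of the 11 main values, 44 stayed within 1.5 times (counts and coverage) or within the 95% interval (shares and medians). Some of the 44 could not move and say nothing about robustness. The flank width leaves the window counts as they are, and membership and collapse leave coverage as it is. The stricter motifs are subsets of a motif found in 0 Hox promoters. The 9 that moved all came from keeping the stronger 50% of a list by −log10 q, which removes regions by construction. The windows then held 13 RARA peaks, 1 mESC enhancer and 0 LIF-dependent enhancers. Input regions with an RARA peak fell to 2.61% in bodies and 2.70% in flanks, against 1.59% of all input regions on the same peaks. Coverage became 4.75% in bodies and 2.85% in flanks, and body medians 6.24 for input fold and 3.90 for RARA fold. At that strength RARA peaks numbered 9.70 per Mb in the windows and 1.89 over the list's span; 7 were in Hoxa, 5 in Hoxb, 1 in Hoxc and 0 in Hoxd. Requiring the RARA summit inside the input region lowered the body share to 3.27%, within its interval but over 1.5 times below the value at 1 bp of overlap, and the flank share to 5.41%, against 2.41% of the list. Body counts depend on where the edge is set. With flanks of 120 kb the Hoxb body held 5 RARA peaks and the Hoxa body 20 input regions. The 16.7-fold RARA peak and the mESC enhancers next to the Hoxb13 and Hoxc13 ends then counted as flank. This left 1 mESC enhancer in the bodies. With flanks of 80 kb the Hoxc body held 1 RARA peak and the Hoxa body 6, among them the 8.36-fold peak. The 5.58-fold Hoxb peak was also in the body at that setting. No paired analysis was possible because the enhancer lists came from merged replicates, and for the same reason no replicate could be left out. Depth was not given, so the precision of single folds is unknown.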

Other observations

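Of the 31 RARA peaks in the Hox windows 5 had exactly the same fold, which rounds to 2.94. It was shared by 289 peaks of the list (2.96%), so these 5 cannot be ordered by fold. The Hoxd peak from 74587629 to 74587892 also rounds to 2.94 but is not among the 5, with rank 5773 against 5481.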
